A study of Mus musculus with 6 samples.

Results

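Genes of leukocyte adhesion to vessel walls were followed in RNA from sorted liver endothelial cells (ECs) of young and aged mice. They were the selectin genes Selp and Sele, the P-selectin ligand gene Selplg, the immunoglobulin-type receptor genes Icam1, Icam2, Vcam1 and Madcam1, and the amine oxidase gene Aoc3, 8 of the 24421 genes in the table of read counts. They were chosen by name, from the known steps by which leukocytes attach to endothelium, with earlier results of these data known. All 8 passed the filter on low counts (0.5 CPM, the count scaled to a common library size, or more in 1 sample or more) and did so in samples of both ages, so that all 8 stand among the 14612 genes tested. Each sample was RNA from CD31+CD45- liver cells of wild-type C57BL/6J mice. Young ECs were 3 samples from mice of 10 weeks, and aged ECs 3 samples from mice of 127, 131 and 136 weeks, which are named here by those weeks. No treatment or engineered allele is given for either age, and the methods name female mice. The comparison of the ages asks which transcripts of the adhesion machinery differ in aged liver ECs.

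Leukocytes leave the blood in steps. Selectins on the endothelium catch carbohydrate-bearing ligands on leukocytes and let the cells roll, and immunoglobulin-type receptors then bind leukocyte integrins and hold the cells firmly. E-selectin, ICAM-1 and VCAM-1 are induced in endothelium by cytokines through NF-κB, P-selectin is also stored in endothelial granules and in platelets, and ICAM-2 is made constitutively. In liver sinusoids, firm adhesion through ICAM-1 and VCAM-1 is known to depend less on selectin rolling than in other vascular beds.

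The receptor genes Selp, Sele, Icam1 and Vcam1 were more abundant in every aged sample than in any young sample, by 6.02-fold for Sele, 2.95-fold for Icam1, 2.58-fold for Selp and 2.32-fold for Vcam1. Icam2 was 0.812-fold in aged over young ECs, with a 95% interval of 0.595 to 1.11 that includes no difference. Selplg was high in 2 of the 3 aged samples. Madcam1 and Aoc3 were barely detected at either age. None of the 8 genes passed the edgeR quasi-likelihood test after Benjamini-Hochberg adjustment, and neither did any of the other genes tested (0% in either direction, with the smallest adjusted p at 0.0666). At an unadjusted p below 0.05, 5 of the 8 were higher in aged ECs (Selp, Sele, Icam1, Vcam1 and Selplg) against 9.03% of all genes tested, and 0 of the 8 were lower against 4.56%. By the DESeq2 Wald test, 4 of the 8 had an adjusted p below 0.05 and were higher, against 3.31% of all genes, and 0 were lower, against 1.06%. The 3 aged values lay above the 3 young values for 4 of the 8, against 9.62% of all genes, and below them for 0 of the 8, against 8.33%. A fitted log2 fold change above 1 was found for 5 of the 8 and for 10.9% of all genes. Fitted higher at any size were 6 of the 8 and 51.0% of all genes. These shares over all genes are the background for the counts of listed genes below.

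**Figure D1:**
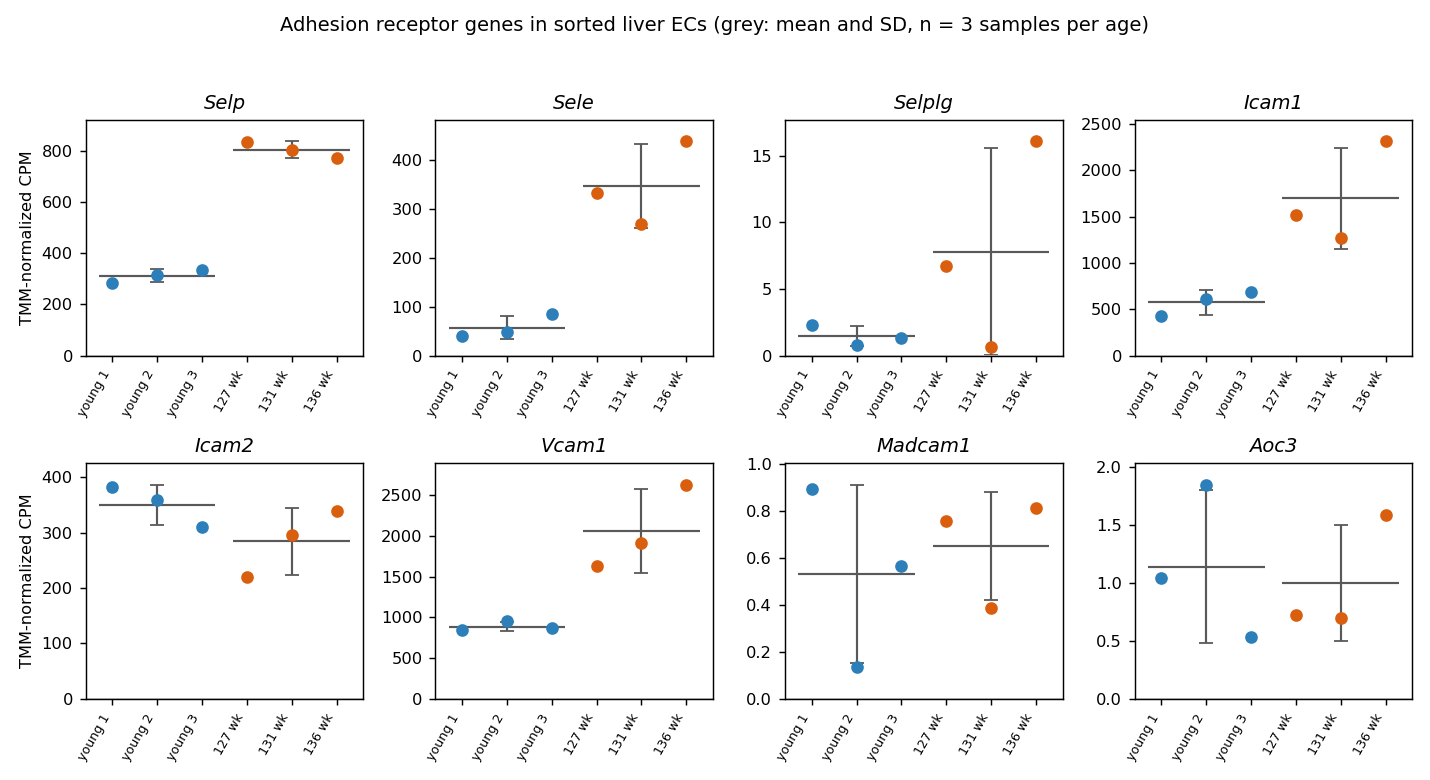
Normalized CPM (linear axes, 1 scale per panel) of the 8 genes in each young (blue) and aged (orange) sample, with the mean and SD of 3 samples per age in grey. In the panels of Selp, Sele, Icam1 and Vcam1 all aged points lie above all young points, while the ages overlap in the other panels.

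Several measures of the whole samples bear on these values. Total counts lay between 23001556 and 31651817 per sample, so that 3 counts, the floor used here, correspond to 0.0946 to 0.135 CPM (counting error only). Lars2 and Rn45s, symbols that collect ribosomal RNA reads, took 0.960% of the counts of the 127-week sample, 1.29% of those of young replicate 3 and 4.68% to 5.53% of those of the other 4. Differences within these library clusters are given beside the pooled ones below, over 2 young and 2 aged samples in the larger cluster and 1 of each age in the smaller one. Of 12 listed EC markers, none was at 0 in all samples, and their summed level was 20159 to 22229 CPM in young and 11343 to 16283 CPM in aged ECs. Of the 12, 3 were fitted higher in aged ECs and 9 lower. Those with an unadjusted p below 0.05 were all lower, namely the sinusoidal genes Stab2 (log2 fold change -1.70), Clec4g (-1.46), Fcgr2b (-0.90) and Stab1 (-0.73). The abundant Kdr was lower without overlap (-0.65). Lyve1, also a sinusoidal gene (0.58), and Emcn (0.30) were fitted higher with overlap between the ages. Pecam1, which encodes the CD31 used in the sort, was at 0.01. The 10 markers of large-vessel ECs summed to 4148 to 5827 CPM in young and 5171 to 6037 CPM in aged ECs. All 10 were fitted higher in aged ECs, against 51.0% of all genes tested. Of these 10, Cd200 (log2 fold change 1.03) and Cd34 (0.74) had an unadjusted p below 0.05. They and Bst1 (0.99), the gene of CD157, at 2.59 CPM in young and 5.14 CPM in aged ECs on average, did not overlap. The more abundant Vwf (0.05), Rspo3 (0.02) and Ly6a (0.25) overlapped between the ages. Hepatocyte markers summed to 238 to 318 CPM in young and 189 to 326 CPM in aged samples. The most abundant of them, Trf (141 and 178 CPM on average), was the only 1 of 8 fitted higher. Of the 8, 3 were lower at an unadjusted p below 0.05, and in 3 all aged values lay below all young values. Cholangiocyte markers summed to 86.3 to 102 CPM and 183 to 230 CPM (5 of 5 fitted higher, among them Spp1 at 84.7 ± 10.0 and 179 ± 23.7 CPM). Spp1 made up most of the cholangiocyte sum. Epcam, Krt7 and Krt19 overlapped between the ages, and Cldn4, at 0.388 CPM in young and 1.86 CPM in aged samples on average, did not. In bulk samples of this kind, fewer cells of a type and less RNA per cell cannot be told apart. Whether a shift among EC subtypes plays a part in the receptor values was not tested.

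Sele (chr1:165978365-165987808, 14 exon blocks) and Selp (chr1:166045395-166080157, 17 exon blocks) lie 57586 bases apart on the plus strand of chromosome 1 of mm9. Icam1 lies at chr9:20820404-20833241 on the plus strand with 7 exon blocks, Icam2 at chr11:106238970-106249389 on the minus strand, Vcam1 at chr3:115812938-115832606 on the minus strand with 10 exon blocks, Selplg at chr5:114267807-114280510 on the minus strand, Madcam1 at chr10:79127319-79131281 on the plus strand and Aoc3 at chr11:101191919-101203252 on the plus strand. Selp overlaps the opposite-strand genes Gm16587 and Gm16548, and Icam1 overlaps the opposite-strand Mir1900. Because the library kit does not mark strand, reads of such overlapping genes cannot be told apart. Of the 75-base stretches in the transcripts, 1.52% of those of Aoc3 also occur in its neighbour Aoc2, and none of those of the other 7 genes occurs in another gene.

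The RefSeq promoters of Selp, Sele and Icam1 are shown because these genes stood higher together, and that of Madcam1 because it is the remaining member with an entry. Each runs 5′ to 3′ on the gene's strand from 250 bases before to 50 bases after the gene's start in GRCm38.p6, a different build from that of the counts, and capitals mark matches on either strand to the NF-κB-type letters GGNNNTTCC or to the stricter NF-κB consensus. They come from chr1:164115014-164115313 (Selp), chr1:164047984-164048283 (Sele), chr9:21015690-21015989 (Icam1) and chr10:79664309-79664608 (Madcam1), all on the plus strand.
Selp: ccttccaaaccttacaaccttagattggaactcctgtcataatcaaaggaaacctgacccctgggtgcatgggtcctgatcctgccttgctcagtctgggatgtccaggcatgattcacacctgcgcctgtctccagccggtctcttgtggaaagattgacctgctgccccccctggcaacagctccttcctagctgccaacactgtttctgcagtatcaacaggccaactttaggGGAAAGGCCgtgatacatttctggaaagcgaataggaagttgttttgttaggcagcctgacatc
Sele: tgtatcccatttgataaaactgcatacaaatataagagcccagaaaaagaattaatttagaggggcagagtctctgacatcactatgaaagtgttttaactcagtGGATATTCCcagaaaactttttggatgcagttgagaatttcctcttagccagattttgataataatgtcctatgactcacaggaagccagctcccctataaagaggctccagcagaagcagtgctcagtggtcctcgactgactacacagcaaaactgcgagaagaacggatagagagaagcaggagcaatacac
Icam1: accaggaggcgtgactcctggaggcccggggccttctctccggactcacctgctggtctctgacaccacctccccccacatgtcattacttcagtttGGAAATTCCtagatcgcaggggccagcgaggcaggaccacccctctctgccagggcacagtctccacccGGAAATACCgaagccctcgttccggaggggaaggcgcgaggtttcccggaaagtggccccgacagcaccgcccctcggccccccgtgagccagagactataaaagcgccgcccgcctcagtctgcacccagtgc
Madcam1: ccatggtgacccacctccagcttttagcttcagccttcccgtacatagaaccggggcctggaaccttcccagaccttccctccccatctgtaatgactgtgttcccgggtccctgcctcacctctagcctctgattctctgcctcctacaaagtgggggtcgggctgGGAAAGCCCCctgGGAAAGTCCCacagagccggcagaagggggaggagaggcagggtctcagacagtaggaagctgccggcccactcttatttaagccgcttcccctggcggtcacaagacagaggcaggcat

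GGNNNTTCC was found in all 4 promoters and in 18.5% of the 32851 promoters of the same length. It stood from -145 to -137 in Sele (position 0 is the first base of the gene), from -14 to -6 in Selp, from -153 to -145 and from -84 to -76 in Icam1, and from -83 to -75 and -70 to -62 in Madcam1. The Icam1 stretch from -153 to -145 matched these letters on both strands. The stricter NF-κB consensus, found in 8.46% of all promoters, matched in Madcam1 alone of the 4, at 2 places that overlap its GGNNNTTCC matches. The CRE-type letters TGACNTCA (8.83% of promoters) were found in Sele from -176 to -169. The AP-1 letters TGANTCA (7.81%) were found in Sele from -73 to -67 and in Selp from -139 to -133. TATAAA (13.6%) was found in Sele from -49 to -44 and in Icam1 from 13 to 18. The core of the interferon-stimulated response element, searched by name, was found in 3.44% of all promoters and in none of the 4. A match says only that these letters occur in the window. Selp, Sele and Icam1, which were higher in aged ECs, and Madcam1, which was near the floor at both ages, thus all held GGNNNTTCC.

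Selp encodes P-selectin, which captures rolling leukocytes. Its normalized level was 284.6, 315.5 and 335.8 CPM in young replicates 1, 2 and 3 and 836.4, 804.7 and 770.3 CPM in the 127-, 131- and 136-week samples. The lowest aged value was 2.29 times the highest young value, and the values within an age lay close together, with a coefficient of variation of 8.26% in young and 4.11% in aged ECs. The mean was 312 ± 25.8 CPM in young and 804 ± 33.0 CPM in aged ECs (SD, n = 3 samples each). The log2 fold change was 1.37 (SE 0.15, 95% interval 1.02 to 1.72), with an adjusted p of 0.0666 by edgeR, the smallest in the table, which Selp shared with 5 other genes. By DESeq2 the adjusted p was 4.02e-19. Within the library clusters the log2 difference was 1.39 in the larger and 1.32 in the smaller. Without the 131-week sample the adjusted p by edgeR was 0.0439 at a log2 fold change of 1.36, and without young replicate 2 it was 0.514 at 1.37.

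P-selectin is also a platelet protein. The 8 platelet markers summed to 28.5 to 33.7 CPM in young and 24.0 to 32.0 CPM in aged ECs, and 3 of the 7 that could be tested were fitted higher and 4 lower. Among the most abundant of them, Itga2b, the platelet integrin, was 12.5 ± 1.57 CPM in young and 9.57 ± 0.901 CPM in aged ECs, and Pf4, a platelet chemokine, was 4.38 ± 1.06 and 5.89 ± 3.13 CPM. The sums of the ages overlapped. The part of platelet RNA in the Selp values was not tested.

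Sele encodes E-selectin, which endothelium makes after cytokine stimulation. Its level was 40.8, 47.8 and 84.4 CPM in young replicates 1 to 3 and 333.4, 269.9 and 439.0 CPM in the 127-, 131- and 136-week samples. The lowest aged value was 3.20 times the highest young value, although the young values themselves spread 2.07-fold. The mean was 57.7 ± 23.4 CPM in young and 347 ± 85.4 CPM in aged ECs (SD, n = 3 each). With a log2 fold change of 2.59 (SE 0.32, 95% interval 1.84 to 3.34), Sele stood at place 33 from the top among the 10224 genes with a mean of at least 5 CPM when these were ordered by fitted rise, against place 178 for Icam1, 251 for Selp and 323 for Vcam1. Its adjusted p was 0.0893 by edgeR and 9.68e-12 by DESeq2. The log2 difference was 2.96 in the larger library cluster and 1.98 in the smaller. The adjusted p by edgeR was 0.0439 without the 131-week sample and 0.514 without young replicate 2.

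Selplg encodes PSGL-1, the ligand that P-selectin binds, and is known mainly from leukocytes. Its level was 2.27, 0.767 and 1.36 CPM in young replicates 1 to 3, and 6.70, 0.661 and 16.1 CPM in the 127-, 131- and 136-week samples. The 127- and 136-week samples were above every young sample and the 131-week sample was below every young sample, so that the ages overlapped and the aged values spread 24.3-fold. The fitted log2 fold change was 2.38 (SE 0.95, 95% interval 0.16 to 4.60), with an unadjusted p below 0.05 and an adjusted p of 0.344 by edgeR and of 0.10 by DESeq2. Within the library clusters the log2 difference was 1.31 and 2.31. The fitted log2 fold change was 1.34 without the 136-week sample and 2.93 without the 131-week sample. The unadjusted p was no longer below 0.05 when any 1 sample other than young replicate 1 or the 131-week sample was left out. Nor was it below 0.05 by limma-voom, by limma on FPKM or with a term for the library cluster.

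Of 10 listed pan-leukocyte genes, 7 were likewise highest in the 136-week sample and next highest in the 127-week sample, and Lcp1, Fcer1g and Cd37 were not. Ptprc, which encodes the CD45 that the sort was meant to leave out, was 1.56, 1.17 and 1.70 CPM in young replicates 1 to 3 and 7.56, 1.28 and 25.6 CPM in the 127-, 131- and 136-week samples. Coro1a, an actin-binding protein of leukocytes, was 5.54, 3.47 and 4.26 CPM in young and 11.8, 5.72 and 34.1 CPM in aged samples. Over the whole list of 10, none was at 0 in all samples, 9 were fitted higher and 5 had an unadjusted p below 0.05 in that direction, with a median log2 fold change of 1.99 against 0.0094 over all genes tested. Their summed level, which 2 abundant genes with little difference dominate (Lcp1, 82.4 and 99.8 CPM on average, and Fcer1g, 71.8 and 72.6 CPM), was 175 to 203 CPM in young and 183, 202 and 448 CPM in the 127-, 131- and 136-week samples. Markers of T and NK cells summed to 8.07 to 10.1 CPM in young and to 24.3, 10.4 and 64.3 CPM in aged samples, and those of Kupffer and other myeloid cells to 48.4 to 93.3 CPM and to 201, 32.0 and 487 CPM. B cell markers summed to 2.35 to 4.26 CPM in young and 3.50 to 9.58 CPM in aged samples, with Pax5 untested, and neutrophil markers to 3.66 to 6.70 and 6.77 to 36.1 CPM. When the fit also held the mean level of these 10 markers, the log2 fold change went from 2.38 to 0.44 for Selplg and from 1.37 to 1.40 for Selp. It went from 2.59 to 2.32 for Sele, from 1.56 to 1.21 for Icam1 and from 1.21 to 1.01 for Vcam1. The adjusted p by edgeR with this term was 0.9999 for Selplg, 0.0438 for Selp, 0.0960 for Sele, 0.301 for Icam1 and 0.289 for Vcam1. With 6 samples this fit cannot decide what part leukocyte RNA has. In the 131-week sample Selp, Sele, Icam1 and Vcam1 were 2.58, 4.68, 2.2 and 2.16 times their young means, and Selplg was 0.451 times its young mean. The part of leukocyte RNA in the receptor values was not tested.

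**Figure D2:**
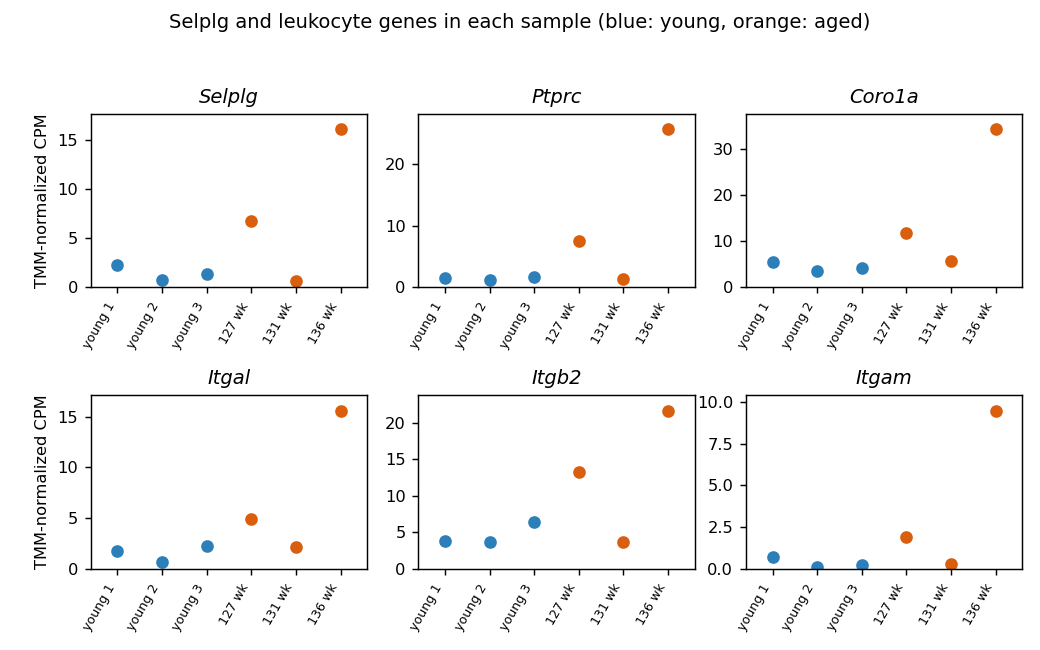
Normalized CPM (linear axes from 0) of Selplg, of the pan-leukocyte genes Ptprc and Coro1a, and of the integrin genes Itgal, Itgb2 and Itgam in each young (blue) and aged (orange) sample. In each panel the 136-week sample is highest and the 127-week sample next, while the 131-week sample lies near or among the young ones.

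Icam1 encodes a receptor for the leukocyte integrins LFA-1 and Mac-1. Its level was 425, 609 and 691 CPM in young replicates 1 to 3 and 1518, 1266 and 2309 CPM in the 127-, 131- and 136-week samples. The lowest aged value was 1.83 times the highest young value. The spread within each age was about as wide as this gap, at 1.62-fold among young and 1.82-fold among aged samples. The mean was 575 ± 136 CPM in young and 1698 ± 544 CPM in aged ECs (SD, n = 3 each), and the log2 fold change was 1.56 (SE 0.30, 95% interval 0.86 to 2.26). Its adjusted p was 0.165 by edgeR and 4.61e-05 by DESeq2. The log2 difference was 1.75 in the larger library cluster and 1.13 in the smaller.

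Vcam1 encodes the receptor that α4 integrins of lymphocytes and monocytes bind. Its level was 840, 951 and 875 CPM in young replicates 1 to 3 and 1630, 1917 and 2632 CPM in the 127-, 131- and 136-week samples. The lowest aged value was 1.71 times the highest young value, the narrowest gap of the 4 receptors that did not overlap. Its young values were the most even of the 8 genes, with a coefficient of variation of 6.36%, against 25.0% in aged ECs. The mean was 889 ± 56.5 CPM in young and 2060 ± 516 CPM in aged ECs (SD, n = 3 each). The log2 fold change was 1.21 (SE 0.24, 95% interval 0.66 to 1.77), with an adjusted p of 0.165 by edgeR and of 3.49e-05 by DESeq2. Within the library clusters it was 1.33 and 0.90.

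Vcam1 is also known from stellate cells and from macrophages. Stellate and mural cell markers summed to 159 to 454 CPM in young and 270 to 751 CPM in aged samples, with 6 of 12 fitted higher and 6 lower. Reln, the most abundant of them, was 135 ± 58.2 CPM in young and 318 ± 195 CPM in aged samples (edgeR, adjusted p = 0.385). Lrat, the retinol-esterifying enzyme of stellate cells and the only one of the 12 with an unadjusted p below 0.05, was lower, at 12.1 ± 10.1 CPM in young and 2.65 ± 1.34 CPM in aged samples without overlap (log2 fold change -2.19, edgeR adjusted p = 0.266). Whether the level of Vcam1 in other cells plays a part was not tested.

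Icam2 encodes a receptor for LFA-1 that resting endothelium carries. Its level was 381, 358 and 310 CPM in young replicates 1 to 3 and 219, 295 and 338 CPM in the 127-, 131- and 136-week samples. The ages overlapped, and the 136-week sample, which had the most Icam1, Vcam1 and Sele, was within the young range. The mean was 350 ± 36.6 CPM in young and 284 ± 60.1 CPM in aged ECs (SD, n = 3 each), with a log2 fold change of -0.30 (SE 0.19, 95% interval -0.75 to 0.15). The adjusted p was 0.548 by edgeR. The log2 difference was -0.23 and -0.50 within the library clusters. With a term for the cluster the unadjusted p was below 0.05 at a log2 fold change of -0.32 (adjusted p of 0.255 by edgeR).

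Madcam1, which gut venules use to hold lymphocytes through the α4β7 integrin, was at 0.893, 0.135 and 0.568 CPM in young and 0.756, 0.389 and 0.812 CPM in aged samples. These values rest on 3 to 24 reads per sample, and young replicate 2 stood at the floor of 3 counts. The log2 fold change was 0.24 with a 95% interval of -1.29 to 1.77 (edgeR, adjusted p = 0.924). Aoc3, the gene of vascular adhesion protein-1, was at 1.04, 1.85 and 0.536 CPM in young and 0.722, 0.700 and 1.58 CPM in aged samples, from 17 to 41 reads. Its log2 fold change was -0.14 with a 95% interval of -1.55 to 1.27 (edgeR, adjusted p = 0.953). At this depth no difference in either gene was detectable, and the direction of both turned when single samples were left out (to -0.14 for Madcam1 and 0.35 for Aoc3 without young replicate 2).

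**Figure D3:**
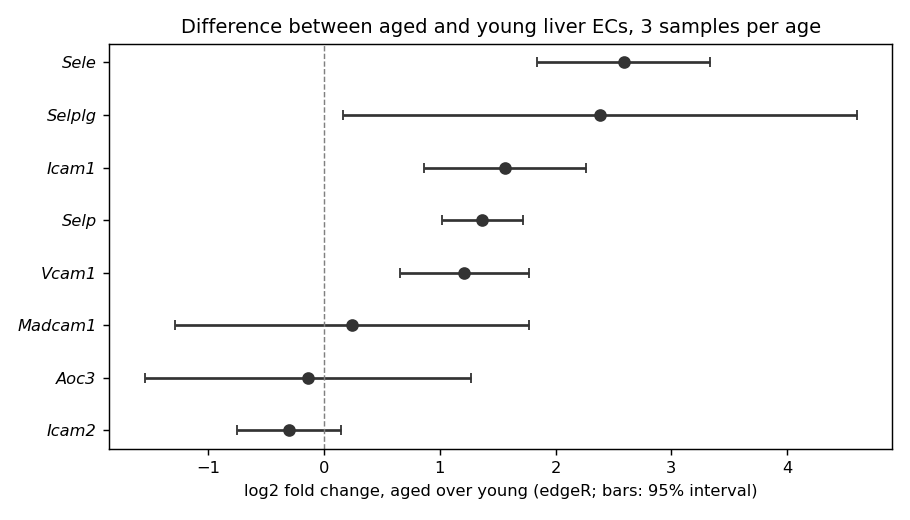
Fitted log2 fold change of the 8 genes in aged over young ECs by edgeR (points) with 95% intervals (bars), 3 samples per age. The intervals of Sele, Icam1, Selp, Vcam1 and Selplg lie above 0, and those of Icam2, Madcam1 and Aoc3 include it; no adjusted p was below 0.05.

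Levels were compared between genes on the FPKM scale, which is per transcript length. In young ECs Icam2 was the most abundant of the 8 genes in each sample, at 391, 367 and 325 FPKM in replicates 1 to 3. Vcam1 followed at 251, 284 and 264 FPKM and Icam1 at 173, 248 and 284 FPKM, and the ranges of these neighbours overlapped. Selp stood below at 90.7, 99.6 and 108.5 FPKM and Sele at 14.02, 16.4 and 29.6 FPKM, each without overlap with its neighbours. In aged ECs Icam1 was at 621, 514 and 941 FPKM and Vcam1 at 485, 569 and 784 FPKM, ranges that overlapped with each other and lay above that of Icam2, at 228, 300 and 345 FPKM. Selp, at 266, 254 and 243 FPKM, overlapped with Icam2, and Sele followed at 116, 93.1 and 152 FPKM. Icam2 thus stood at the top of the order in 3 of 3 young samples and at place 3 or 4 in the aged samples.

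The remaining genes were far lower. Selplg was at 0.308 to 0.912 FPKM in young and 0.265 to 6.44 FPKM in aged samples, Madcam1 at 0.108 to 0.710 FPKM and 0.277 to 0.611 FPKM, and Aoc3 at 0.126 to 0.426 FPKM and 0.161 to 0.363 FPKM. Their ranges overlapped with one another at both ages. Ordered by FPKM over the whole table, Icam1 moved from place 575, 373 and 265 in young replicates 1 to 3 to place 75, 162 and 59 in the 127-, 131- and 136-week samples. Sele moved from place 4972, 4537 and 2942 to place 696, 1024 and 620. The FPKM of the 8 genes summed to 921 to 1017 in young and 1719 to 2473 in aged samples, and the share of Icam2 in that sum was 32.1% to 42.4% in young and 13.2% to 17.3% in aged samples. The share of Sele in it was 1.52% to 2.92% and 5.38% to 6.75%.

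**Figure D4:**
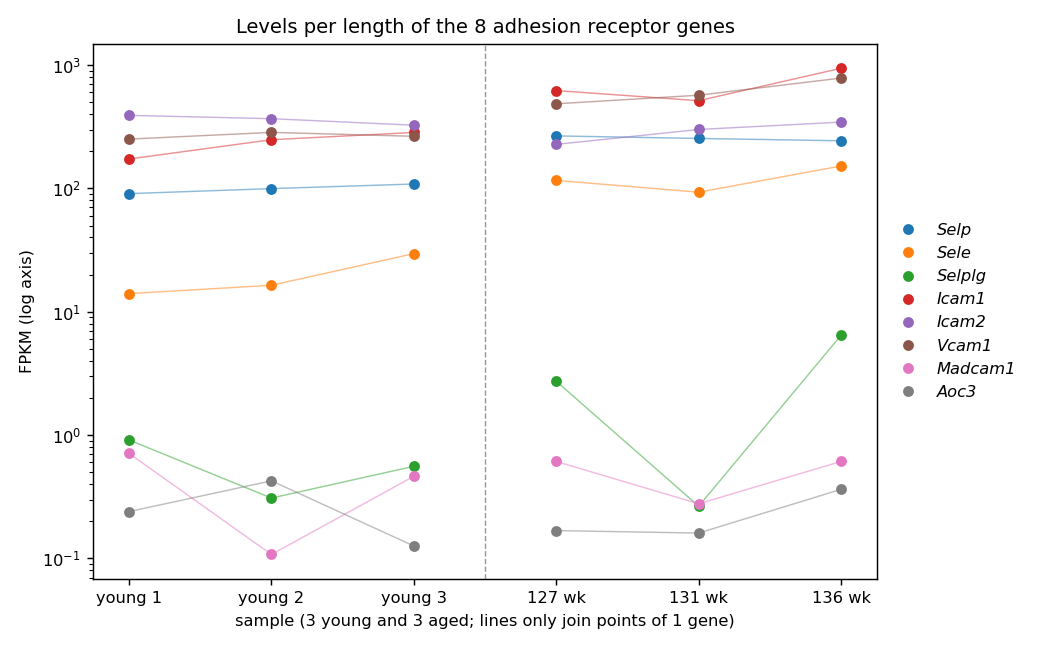
FPKM of the 8 genes (log axis) in each of the 3 young and 3 aged samples, with lines that only join the points of 1 gene within an age. Icam2 is the top line in the young samples, Icam1 and Vcam1 are the top lines in the aged samples, and Selplg, Madcam1 and Aoc3 lie below 10 FPKM throughout.

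Ratios between members within a sample do not depend on how the samples were scaled. Sele over Selp, the ratio of the selectins, was 0.155, 0.165 and 0.273 in young replicates 1 to 3 and 0.436, 0.367 and 0.625 in the 127-, 131- and 136-week samples on the FPKM scale. Icam1 over Icam2, the induced over the constitutive LFA-1 receptor, was 0.443, 0.675 and 0.873 in young and 2.73, 1.71 and 2.73 in aged samples. Vcam1 over Icam2 was 0.642, 0.774 and 0.813 in young and 2.13, 1.90 and 2.28 in aged samples. In these 3 ratios the ages did not overlap. The mean log2 ratios from the counts differed between the ages by 1.27 for Sele over Selp, 1.86 for Icam1 over Icam2 and 1.5 for Vcam1 over Icam2. Each gave p = 0.1 in a two-sided exact permutation test, the smallest that 3 samples against 3 allow, and 0.133 after adjustment over the 4 ratios tested. Vcam1 over Icam1 overlapped, at 1.45, 1.15 and 0.931 in young and 0.782, 1.11 and 0.834 in aged samples, with a log2 difference of -0.36 (exact permutation test, p = 0.2).

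**Figure D5:**
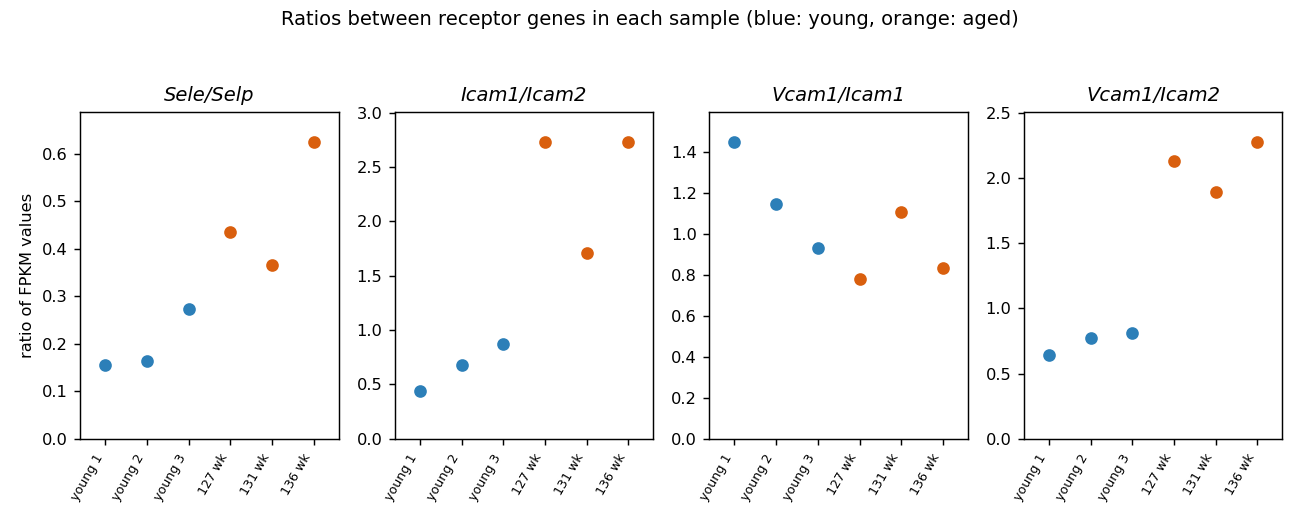
Ratio of FPKM values (linear axes from 0) between pairs of receptor genes in each young (blue) and aged (orange) sample. All aged points lie above all young points for Sele over Selp, Icam1 over Icam2 and Vcam1 over Icam2, and the ages overlap for Vcam1 over Icam1.

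The genes whose profiles over the 6 samples were most like those of the receptors were found by the root mean square difference of log2(CPM + 1), centred on each gene's mean, among genes with a mean of at least 5 CPM. For Icam1 they were Irf1, an interferon-induced transcription factor (0.168), the complement gene C2 (0.174) and the growth factor gene Vegfa (0.194). For Sele they were Pcdh9 (0.369), Tnfaip3, an inhibitor of NF-κB signalling (0.431), and the MHC class II gene H2-Ab1 (0.458). For Selp they were Slc7a6 (0.196), Ric3 (0.203) and the kinase gene Map3k5 (0.207), and for Vcam1 Cldn12 (0.112), Cnnm4 (0.112) and the endothelial transcription factor Sox7 (0.121). For Selplg they were Rac2 (0.172), Lsp1 (0.242) and Zbp1 (0.247), of which Rac2 and Lsp1 are known from leukocytes. For Icam2 they were Mrpl27 (0.0592), Bcl2l1 (0.0731) and Lyn (0.0756). Madcam1 was nearest to Rab3ip, Sssca1 and Rps6kc1 and Aoc3 to Adcy9, Rab8b and C1qtnf6, at distances of 0.0916 to 0.122 that mean little at their few reads. Among the members themselves, Selp and Vcam1 were nearest (0.262), then Icam2 and Aoc3 (0.281) and Icam1 and Vcam1 (0.299), and Sele and Icam2 were farthest apart (1.53). Distances of Aoc3 and Madcam1 to other members also mean little at their few reads. All these distances describe 6 samples and are no test.

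Genes of integrin chains that bind ICAM, VCAM and MAdCAM receptors were listed beside the receptors, and 8 of 9 could be tested. At an unadjusted p below 0.05, 3 were higher and 1 was lower in aged samples, and 0 passed the edgeR test after adjustment (by DESeq2, 1 higher and 1 lower). Itgal, the α chain of LFA-1, was 1.79, 0.632 and 2.27 CPM in young and 4.92, 2.18 and 15.6 CPM in aged samples (edgeR, adjusted p = 0.306). Itgb2, the β chain of LFA-1 and Mac-1, was 3.87, 3.75 and 6.47 CPM in young and 13.3, 3.69 and 21.7 CPM in aged samples (adjusted p = 0.349), and the Mac-1 gene Itgam was 0.354 ± 0.308 and 3.90 ± 4.88 CPM. In all 3 the 131-week sample lay within or below the young range, as for Ptprc. Itga9, an integrin chain that binds VCAM-1, was lower, at 424, 464 and 565 CPM in young and 227, 311 and 245 CPM in aged samples, with a log2 fold change of -0.89 (SE 0.19, edgeR adjusted p = 0.173) and no overlap. Itgb1 (log2 fold change -0.06) and Itgb7 (-0.10), the other abundant chains, overlapped between the ages.

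Of 17 genes for selectin ligand proteins and the enzymes that decorate them, 15 could be tested (not Fut7 and Chst4). At an unadjusted p below 0.05, 3 were higher and 1 was lower, and the median log2 fold change was 0.30. Cd24a, a mucin-like P-selectin ligand, was 22.0 ± 9.67 CPM in young and 79.7 ± 32.3 CPM in aged samples without overlap (log2 fold change 1.85, edgeR adjusted p = 0.173). Gcnt1, which builds the core on which selectin ligands are made, was 2.25 ± 1.02 and 7.19 ± 3.80 CPM (1.69, adjusted p = 0.249). Cd34, a sialomucin of vessels, was 112 ± 26.3 and 187 ± 80.9 CPM (0.74, adjusted p = 0.368). Chst2, a sulfotransferase of selectin ligands, was lower, at 141 ± 27.1 and 89.2 ± 28.5 CPM with overlap (-0.66, adjusted p = 0.336). The most abundant genes of the list, Tpst2 (-0.29), Podxl (0.22) and St3gal4 (-0.18), overlapped between the ages.

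Genes of the next step, passage between ECs, and genes of ICAM and VCAM docking (actin linkers, tetraspanins and GTPase genes) had medians near the 0.0094 of all genes tested. Of 12 junction genes tested, 2 were higher and 1 was lower at an unadjusted p below 0.05, with a median log2 fold change of 0.01. Jam3, a junctional adhesion molecule, was 20.3 ± 4.22 CPM in young and 30.1 ± 3.85 CPM in aged ECs (0.57), Pvr was 56.4 ± 11.5 and 84.8 ± 21.6 CPM (0.59), and Esam, an endothelial junction protein, was 1371 ± 283 and 931 ± 144 CPM (-0.56), with adjusted p values of 0.311 to 0.347 by edgeR. Pecam1 and Jam2, the other abundant genes of the list, were at 0.01 and -0.09 on that scale. Of 10 docking genes, 1 was higher and 1 lower, with a median of 0.03. Ezr, which encodes ezrin, was 27.1 ± 6.55 and 40.9 ± 4.98 CPM (0.60), and Rhog, a small GTPase of the ICAM-1 docking cup, was 90.9 ± 4.60 and 66.1 ± 3.56 CPM (-0.46), both without overlap. Msn, the most abundant of the 10, was 1506 ± 235 CPM in young and 1506 ± 315 CPM in aged ECs, and Cd9 (0.01) and Rdx (0.35) overlapped.

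NF-κB target genes that feed back on the pathway were listed because cytokines induce Sele, Icam1 and Vcam1 through it. Of 12, 11 were fitted higher, 4 of these with an unadjusted p below 0.05, and none was lower at that level (by DESeq2, 3 had an adjusted p below 0.05). Over all genes tested, 51.0% were fitted higher, 9.03% were higher and 4.56% lower at an unadjusted p below 0.05. The median log2 fold change was 0.46. Tnfaip3 was 59.9, 83.0 and 99.9 CPM in young and 263, 237 and 721 CPM in aged samples (2.33, SE 0.46, edgeR adjusted p = 0.165). Nfkbiz was 477, 579 and 712 CPM and 1009, 1103 and 1746 CPM (1.13, adjusted p = 0.209), and Nfkbia, the gene of the inhibitor IκBα, was 1090, 1246 and 1306 CPM and 1534, 1937 and 2951 CPM (0.82, adjusted p = 0.299). Rel was 11.5, 9.88 and 14.3 CPM and 18.6, 20.7 and 40.3 CPM (1.15, adjusted p = 0.232). In these 4 the ages did not overlap. In the other 8 the ages overlapped, with log2 fold changes from -0.04 (Nfkb1) to 0.62 (Traf1), among them Nfkb2 (0.03), Relb (0.14), Nfkbib (0.17) and Nfkbie (0.18).

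The 10 listed genes known to be induced by tissue dissociation summed to 20279 to 23794 CPM in young and 23142 to 28355 CPM in aged samples. Of the 10, 9 were fitted higher, against 51.0% of all genes tested. At an unadjusted p below 0.05, 2 were higher (Atf3, log2 fold change 1.33, and Fosb, 0.86), against 9.03% of all genes. Of the most abundant, Fos was 4815 ± 692 CPM in young and 5069 ± 650 CPM in aged ECs, Dusp1 was 5218 ± 33.4 and 3915 ± 193 CPM, and Egr1 was 3283 ± 210 and 4849 ± 822 CPM. The part of dissociation in the receptor values was not tested.

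Among receptors for the cytokines that induce adhesion genes, 1 of 9 was higher and 2 were lower at an unadjusted p below 0.05. Tnfrsf1b, the gene of TNF receptor 2, was 23.9, 25.9 and 17.2 CPM in young and 66.0, 44.3 and 91.0 CPM in aged samples without overlap (1.59, SE 0.29, edgeR adjusted p = 0.165). Ltbr, the lymphotoxin-β receptor gene (-0.52), and Tlr4, the gene of the receptor for lipopolysaccharide (-0.56), were lower without overlap, with adjusted p values of 0.293 and 0.294. Tnfrsf1a, for TNF receptor 1, was 431 ± 57.3 and 384 ± 44.6 CPM, and Il4ra was 442 ± 71.4 and 426 ± 80.6 CPM. Of the closest relatives of the members, Icam4 was 0.335, 0.135 and 0.410 CPM in young and 1.24, 1.21 and 0.974 CPM in aged samples (1.88, edgeR adjusted p = 0.225), a gene that lies beside Icam1 on chromosome 9, while Icam5 (-0.08) and Aoc2 (0.24) overlapped. The Icam4 values rest on 116 reads over all samples, and young replicate 2 stood at the floor of 3 counts.

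Around the 8 genes, 51 other protein-coding genes were followed within 100000 bases in mm9, and 38 of them could be tested. Of these, 2 were higher (Icam4 and Tmem119) and 4 lower (Ficd, G6pc, Ramp2 and Rundc1) at an unadjusted p below 0.05. The shares over all genes tested were 9.03% higher and 4.56% lower. At the selectin locus F5, the gene of coagulation factor V that follows Selp, was 1.90 ± 1.12 CPM in young and 2.93 ± 0.875 CPM in aged ECs (0.57), and Slc19a2 (0.39), Scyl3 (-0.33) and BC055324 (-0.60) overlapped between the ages. Beside Icam1, Mrpl4 (-0.02), Raver1 (0.00220) and Tyk2 (-0.17) overlapped, and Extl2, the 1 tested neighbour of Vcam1, was at 0.40 with overlap. Ramp2, an endothelial adrenomedullin receptor subunit near Aoc3, was 578 ± 11.2 CPM in young and 437 ± 40.4 CPM in aged ECs without overlap (-0.40, edgeR adjusted p = 0.313), while Aoc3 itself stayed near 1 CPM.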

How the data were processed

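RNA of sorted CD31+CD45- liver ECs, in 3 samples from young and 3 from aged mice, had been sequenced as 75-base single-end reads. Per the labels, base calling was with CASAVA 1.8.2, mapping to mm9 with TopHat2 2.1.0 and FPKM with Cuffnorm 2.2.1. The authors deposited whole-number read counts per gene symbol, not normalized, and FPKM values scaled between samples by Cuffnorm (24346 symbols). The counting program, its annotation and its strand setting are not given in the sources used here. Total counts were 23001556 to 31651817 per sample.

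Genes with at least 0.5 CPM in at least 1 sample (14612) were normalized by TMM (factors 0.963 to 1.11) and tested for a difference between the ages by edgeR quasi-likelihood (4.0.16, R 4.3.3), with Benjamini-Hochberg adjustment over all of them and a threshold of 0.05. DESeq2 1.42.0, limma 3.58.1 (voom, with and without sample weights, and log2(FPKM + 1 or 0.1)), other scalings and filters, terms for the library cluster or for pan-leukocyte markers, and each sample left out in turn were alternatives. The SE is the log2 fold change over the square root of F. The labels do not say whether a sample is 1 mouse or a pool, and give no batch, so p-values measure the spread between these 6 samples. No 2 replicates were alike within sampling noise (chi-square per degree of freedom of at least 20.2). Tested on simulated counts of 14249 genes for this comparison, 80 of 100 genes with a 4-fold change and 93 of 100 with a 16-fold change were called by edgeR, beside 14 without a change. DESeq2 called 87, 95 and 56. Genes were simulated independently of one another and without library clusters. These rates thus need not hold for the real samples, where edgeR called 0 genes.

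The members and gene lists were chosen with earlier results of these data known. Besides the members, the text names the 3 most abundant genes of a list and those with an unadjusted p below 0.05 (at most 4), apart from some markers of other cell types, the 3 most similar profiles per member and genes within 100000 bases. Promoters are RefSeq sequences (GRCm38.p6), matched for 4 of 8 members. Those of Selplg, Icam2, Vcam1 and Aoc3 were not analysed here. Gene positions were read from the mm9 release of GENCODE. Of the neighbouring and listed genes, 1 is not reported here.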

Additional observations from a re-analysis of the deposited data

How the results depend on the processing

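The log2 fold changes of Selp, Sele, Selplg, Icam1, Icam2 and Vcam1 kept their sign under all 23 alternative fits and within both library clusters. The number of members with an adjusted p below 0.05, 0 by edgeR, was 1 without a filter on low counts (Selp), 4 by DESeq2, 2 by limma-voom with sample weights, 1 with the pan-leukocyte term (Selp) and 0 to 2 when single samples were left out, with 2 without the 131-week sample. The number lower at an unadjusted p below 0.05 went from 0 to 1 (Icam2) with voom weights and with the cluster term, and the number with all aged values below young was 0 to 1 when single samples were left out. Over all genes, edgeR called 0, the unfiltered fit 4 higher and 2 lower, voom weights 13 and 2, the cluster term 1 and 1, the pan-leukocyte term 11 and 16, limma on log2(FPKM + 0.1) 1 and 1, the fit without the 131-week sample 78 and 45, and DESeq2 484 and 155. Directions turned for Madcam1 (-0.20 with the pan-leukocyte term, and -0.14 to 0.76 over samples left out) and for Aoc3 (0.43 in the smaller library cluster, and -0.61 to 0.35 over samples left out). The cause of these moves was not tested. All 4 ratios kept their direction. No paired analysis was made, because the labels link no young sample to an aged one. Depth limits Madcam1 and Aoc3, at 3 to 41 reads per sample.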
